A study of Mus musculus with 6 samples.

Results

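The genes that attach ubiquitin to proteins and take it off again were followed in KYSE30, a human line grown from a squamous carcinoma of the esophagus and labelled wild type. Control cells were set against cells given acetylcholine (ACh) at 100 uM, the transmitter of muscarinic and nicotinic receptors. Both groups were sampled at 4 h, and each group had 3 libraries of total RNA. The comparison asks how the transcripts of these genes stood with and without ACh. The members were chosen by gene symbol. They are the protein-coding genes of the deposited table, not annotated there as transcription factors, whose symbols carry the stems of the E2 enzymes (UBE2), of E3 ligase families (HECT, HERC, NEDD4, UBE3, RNF, UBR, TRIM, CUL and FBX) or of deubiquitinases (USP and OTU). This gave 100 of the 4195 genes in the table, with 18 E2 genes, 58 E3 genes and 24 genes with deubiquitinase symbols. The table holds only genes that its authors found different at an unadjusted p under 0.05, so relatives outside it have no value here and every member had been selected for a difference. One of the 100, USP6NL, carries a deubiquitinase symbol but encodes an activator of Rab GTPases.

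Ubiquitin is a small protein that marks other proteins for the proteasome or changes their location and partners. An E1 enzyme activates it, an E2 enzyme carries it, and an E3 ligase brings the E2 to the substrate. HECT ligases take ubiquitin onto their own cysteine first, while RING ligases, among them most RNF and TRIM proteins, pass it directly from the E2. Cullins are scaffolds of large RING ligases, and F-box proteins are the substrate receptors of the cullin CUL1. Deubiquitinases cut ubiquitin off. In squamous carcinomas the system is known for the ligase receptor KEAP1, which limits the oxidative stress factor NRF2, and for the F-box protein FBXW7, a tumour suppressor.

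The deposited values are normalised read counts, and within each library they were multiples of a single step. The listed genes summed to between 10519515 and 11468978 per library, and the sequencing depth of the libraries is unknown. Across the 100 members, values as log2(value + 1) correlated at a Pearson's r of 0.9958 to 0.9983 between libraries of one group and 0.9813 to 0.9879 between libraries of different groups, a description over genes that were selected for a difference. The median coefficient of variation of a member was 3.1% in Control and 3.0% in ACh. Nothing in the labels says that the libraries came from separate cultures, so each p-value reflects only how far these 6 libraries scatter, and that scatter may be technical. Of 14 squamous markers 5 were listed, with summed normalised counts of 16800 to 17679 in Control and 15549 to 16135 in ACh. Of these 5 genes 2 rose and 2 fell, as defined below. All 3 listed simple epithelial keratin genes fell. Of the markers of other cell types 1 of 7 for fibroblasts, 1 of 6 for immune cells and 1 of 4 for endothelial cells were listed. These were COL1A1 of fibroblasts (146 to 193 in Control and 133 to 147 in ACh), LAPTM5 of immune cells (17.7 to 21.3 and 31.1 to 48.2) and EGFL7 of endothelial cells (1052 to 1081 and 818 to 970). The part of these shifts in the results below was not tested.

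Ubiquitin genes changed by small amounts in both directions, with more of them higher than lower in ACh. A gene is said to have risen or fallen where its adjusted p was under 0.05 by limma and also in the authors' deposited table. A fold change is the ACh mean minus the Control mean of log2(value + 1). The 100 members comprised 40 that rose, 24 that fell and 36 short of passing both tests. Of all listed genes 28.8% rose, 35.0% fell and 63.8% passed both tests in either direction, a share close to the 64 of 100 here. With the libraries scaled to equal totals over the listed genes 40 members rose and 16 fell, beside 28.8% and 23.6% of all listed genes. These totals cover only genes selected for a difference, and the scaling raised the median log2 fold change of all listed genes by 0.08. A call lost with equal totals therefore does not show that a gene was unchanged. By limma alone all 100 members passed, beside 99.6% of all listed genes. The 36 thus passed limma and missed only the authors' adjusted p. Below, short of both tests means that a gene did not pass both, and not that it failed each of them. The median log2 fold change was 0.14 over the members and -0.10 over all listed genes. No member reached 1.5-fold. Among those that rose the log2 fold change ran from 0.14 to 0.36, and among those that fell its size ran from 0.10 to 0.27. The groups did not overlap for 95 of the 100 members, against 93.0% of all listed genes.

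**Figure D1:**
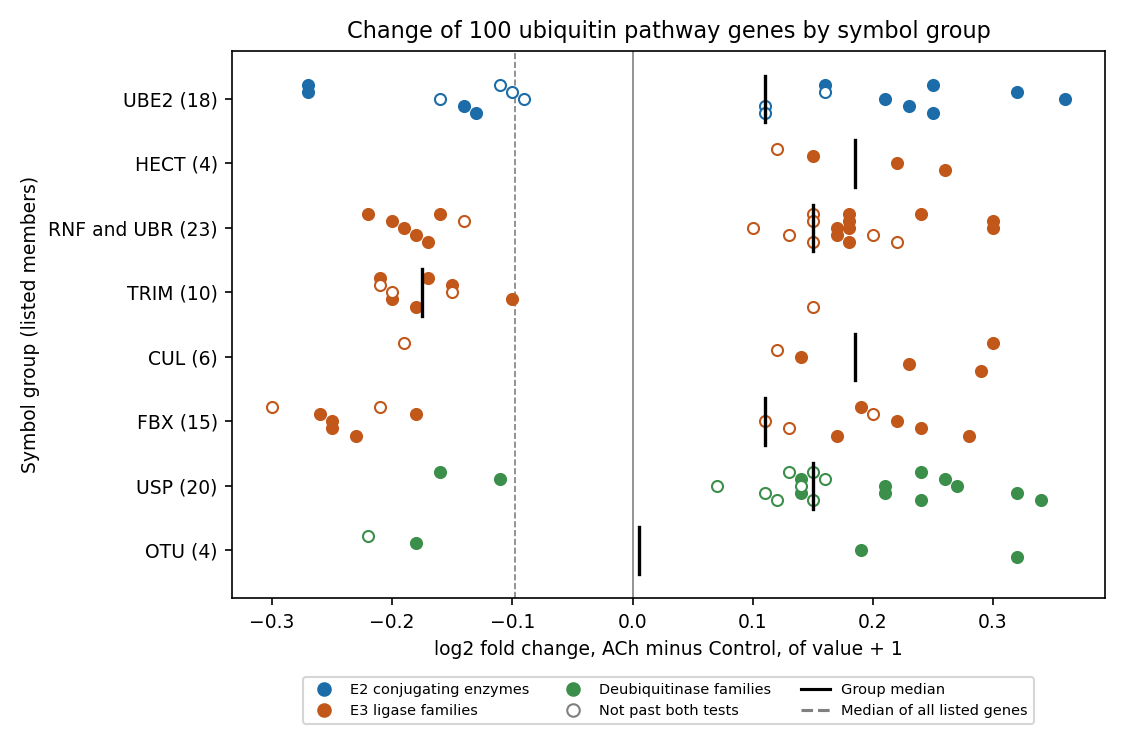
Log2 fold change (ACh minus Control, horizontal axis) of each member by symbol group (vertical axis, with the number of listed members). Filled points passed both tests, short black lines are group medians and the dashed line is the median of all 4195 listed genes. The USP, CUL and HECT points lie mostly right of 0 and 9 of the 10 TRIM points lie left of it.

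The E2 genes went both ways, with 7 that rose, 4 that fell and 7 short of both tests. UBE2W, which places ubiquitin on the amino terminus of substrates, showed the largest rise of any member. The Control libraries held 604, 627 and 584 normalised counts of it, and the ACh libraries 826, 806 and 700. Every ACh library was thus above every Control library, and the log2 fold change was 0.36 (standard error, SE, 0.07, limma adjusted p = 0.00016). UBE2Q2 went from 421, 424 and 339 in Control to 500, 485 and 485 in ACh, a log2 fold change of 0.32. Its Control library at 339 lay apart from the rest of its group, and the groups still did not overlap.

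UBE2A and UBE2B, the closely related E2 enzymes of DNA damage tolerance and of histone H2B ubiquitination, both rose. UBE2A had 1693, 1680 and 1686 in Control and 1948, 1884 and 1834 in ACh, and UBE2B rose by 0.25 on the log2 scale. UBE2V2, a partner with which UBE2N builds ubiquitin chains, rose by 0.23. UBE2N itself had 2064, 2129 and 2145 in Control and 2228, 2395 and 2225 in ACh, a log2 fold change of 0.11 that was short of passing both tests. UBE2K, which builds chains that lead to the proteasome, rose from 1776 ± 103 to 2050 ± 11.9 (SD, n = 3 each). UBE2E1 rose by 0.25, although its groups overlapped.

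UBE2S and UBE2M fell most among the E2 genes. UBE2S extends ubiquitin chains on substrates of the anaphase-promoting complex, the ligase that drives exit from mitosis. It had the highest count of the group, with 7548, 8258 and 7868 in Control and 6563, 6727 and 6335 in ACh, a log2 fold change of -0.27 (SE 0.04, limma adjusted p = 7.67e-06). UBE2S shares 3506 bases of its span with RPL28, a ribosomal protein gene on the other strand with a log2 fold change of -0.34 in the authors' deposited table. Whether the counting used strand is not stated, so reads of the pair could not be told apart. UBE2M, the E2 enzyme that attaches the ubiquitin-like protein NEDD8 to cullins, had 1550, 1606 and 1644 in Control and 1368, 1268 and 1347 in ACh, and also fell by 0.27. UBE2O, a large enzyme with both E2 and E3 activity, fell by 0.14 and UBE2J2, an E2 of the endoplasmic reticulum membrane, by 0.13. With equal totals UBE2O stood at -0.06 and UBE2J2 at -0.05, neither passed both tests, and 2 E2 genes fell in place of 4. UBE2J1, another E2 of that membrane, had a log2 fold change of 0.16 and did not pass both tests.

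UBE2L6, the E2 of the interferon-induced modifier ISG15, had a log2 fold change of -0.16 with overlapping groups and did not pass both tests. UBE2D2 and UBE2D3, near-identical E2 enzymes used by many RING ligases, stood at log2 fold changes of -0.10 and 0.11, also short of both tests. Reads that match such close relatives, or their pseudogenes, may be split between them, which makes these values and those of UBE2N uncertain.

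All 4 HECT genes were higher in ACh and 3 of them rose. NEDD4, a ligase for membrane proteins, had 2227, 2032 and 2062 in Control and 2463, 2609 and 2508 in ACh. That is a log2 fold change of 0.26 (SE 0.04, limma adjusted p = 2.83e-05), and the lowest ACh library stood above the highest Control library. HERC4 rose by 0.22, from 1569 ± 47.0 to 1821 ± 52.8 (SD, n = 3 each). HERC1, a giant protein of the same family, was higher by 0.12 and did not pass both tests.

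The 23 RNF and UBR genes comprised 9 that rose, 6 that fell and 8 short of both tests. The UBR genes encode recognition proteins of the N-degron pathway, which reads the amino-terminal residue of a protein. UBR2 rose by 0.18 and UBR3 by 0.17, and UBR1 had a log2 fold change of 0.20 short of both tests.

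RNF111, a SUMO-targeted ligase that acts in TGF-beta signalling, shared the largest rise among RNF genes with RNF170, a ligase of the endoplasmic reticulum. RNF111 had 705, 650 and 679 in Control and 817, 806 and 884 in ACh. RNF170 had 408, 380 and 443 in Control and 492, 535 and 487 in ACh. Both had a log2 fold change of 0.30 with no overlap between the groups. RNF217, RNF139, RNF19A and RNF11 rose by 0.24, 0.18, 0.18 and 0.18. RNF139 is a ligase of the endoplasmic reticulum membrane.

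The RNF genes that fell included those with the highest counts per length. RNF187 had 4446, 4557 and 4350 in Control and 3747, 3923 and 3828 in ACh, a log2 fold change of -0.22 (SE 0.03, limma adjusted p = 2.75e-05). RNF40, which works with UBE2A and UBE2B on histone H2B, had 1781, 1956 and 1983 in Control and 1681, 1644 and 1639 in ACh, a log2 fold change of -0.20. Its direction was thus opposite to that of the pair of E2 genes. RNF126, RNF44, RNF26 and RNF5 fell by 0.19, 0.18, 0.17 and 0.16. With equal totals RNF26 (-0.09) and RNF5 (-0.08) lost their calls, and 4 genes of the group fell in place of 6.

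TRIM genes were the one larger group with mostly lower members. Of 10 listed 6 fell, none rose and 4 did not pass both tests, beside 35.0% of all listed genes that fell. With equal totals 3 of 10 fell, beside 23.6% of all listed genes, as TRIM11, TRIM26 and TRIM16L lost their calls. TRIM28, a corepressor that works with zinc finger proteins, had the highest level per length of all members, 3142 normalised counts per kilobase of gene length. Control libraries held 13359, 13878 and 13126 counts of it and ACh libraries 11863, 12090 and 11735, a log2 fold change of -0.18 (limma adjusted p = 0.000178). TRIM41 fell by 0.20. TRIM16 had 3605, 3843 and 3649 in Control and 3178, 3266 and 3122 in ACh and fell by 0.21 (SE 0.03, limma adjusted p = 5.29e-05). TRIM16L, a near copy of TRIM16 on the same chromosome, fell by 0.10 (-0.02 with equal totals), and reads could be split between this pair. TRIM21, the cytosolic antibody receptor, had a log2 fold change of -0.20 short of both tests. TRIM33 alone was higher, by 0.15, and did not pass both tests.

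Of 6 listed cullins 5 were higher and 4 rose. CUL5 had 526, 589 and 540 in Control and 646, 679 and 717 in ACh, a log2 fold change of 0.30 (SE 0.07, limma adjusted p = 0.000566). CUL4B, on the X chromosome, had 1602, 1522 and 1637 in Control and 1948, 1983 and 1892 in ACh, a log2 fold change of 0.29 (limma adjusted p = 1.28e-05). Its paralog CUL4A, the cullin with the highest counts, went from 2403 ± 11.3 to 2650 ± 46.0 (SD, n = 3 each) and rose by 0.14. CUL2 rose by 0.23, and CUL1, the scaffold for F-box proteins, was higher by 0.12 short of both tests. CUL9, the one lower cullin, had a log2 fold change of -0.19, also short of both tests.

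The 15 F-box genes split evenly, with 5 that rose and 5 that fell. FBXO28 rose by 0.24, FBXO3 by 0.22, FBXO34 by 0.19 and FBXO32, the atrophy-linked ligase atrogin-1, by 0.17. FBXO27, a receptor that binds sugar chains of glycoproteins, had 2254, 2276 and 2269 in Control and 1955, 1720 and 2035 in ACh, the largest fall of the group at -0.26 (SE 0.05, limma adjusted p = 0.000171). FBXO17, its relative beside it on chromosome 19, and FBXW4 both fell by 0.25. FBXW5, the F-box gene with the highest counts, fell from 5991 ± 155 to 5100 ± 130 (SD, n = 3 each), with a log2 fold change of -0.23. FBXL19 fell by 0.18. FBXL15 had a log2 fold change of -0.30 at the lowest counts of the F-box group, 243 to 247 in Control and 183 to 231 in ACh, and did not pass both tests.

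Deubiquitinase genes were mostly higher in ACh. The 20 USP genes comprised 10 that rose, 2 that fell and 8 short of both tests, all of them higher. USP45, at the lowest level of all members (29.4 normalised counts per kilobase), had 210, 208 and 208 in Control and 270, 281 and 245 in ACh and rose by 0.34. USP53 had 541, 515 and 577 in Control and 709, 632 and 705 in ACh and rose by 0.32. USP34 and USP37 rose by 0.27 and 0.26, USP15 and USP33 by 0.24 each, and USP12 and USP16 by 0.21 each. USP9X, on the X chromosome, and USP14, a subunit that trims chains at the proteasome, rose by 0.14 each. USP14 had narrow groups, with 3951, 3946 and 3911 in Control and 4319, 4333 and 4323 in ACh.

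Both USP genes that fell had high counts. USP22, the deubiquitinase of the SAGA coactivator complex, had 13754, 14325 and 13955 in Control and 12948, 12891 and 13225 in ACh. Its log2 fold change of -0.11 lost its call with equal totals (-0.03). USP5, which recycles free ubiquitin chains, went from 3625 ± 104 to 3237 ± 97.4 (SD, n = 3 each), with a log2 fold change of -0.16. USP7, the deubiquitinase of MDM2, USP1, of DNA repair proteins, and USP8, of endosomal receptors, were higher by 0.07, 0.11 and 0.12 and did not pass both tests.

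The 4 OTU genes went both ways. OTUB1 fell by 0.18, from 3975, 4089 and 4029 in Control to 3555, 3558 and 3534 in ACh. OTUD6B had 659, 633 and 581 in Control and 802, 825 and 713 in ACh and rose by 0.32. OTUD4 rose by 0.19, and OTUD1 had a log2 fold change of -0.22 short of both tests. OTUB1 shares 3254 bases with MACROD1 and OTUD4 shares 18342 bases with ABCE1, each on the other strand and each moving the same way in the authors' deposited table.

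**Figure D2:**
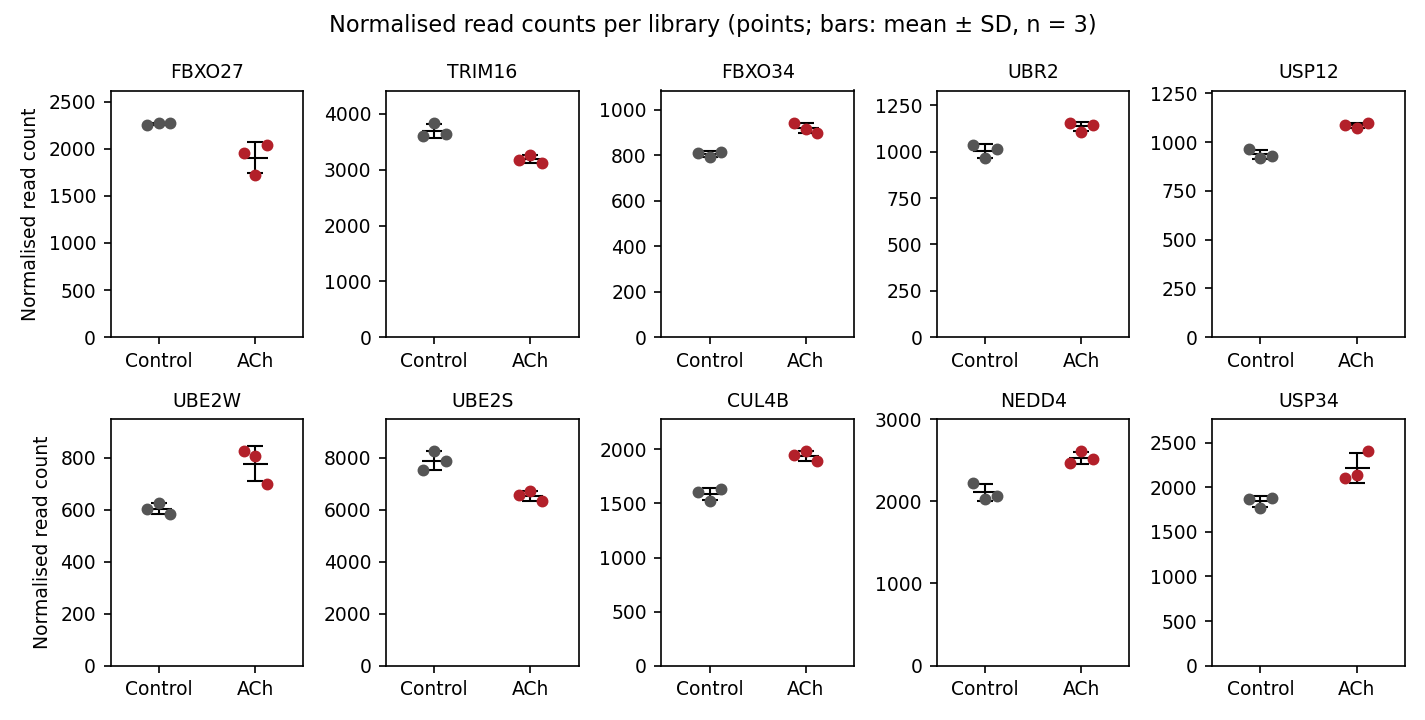
Normalised read counts (vertical axes, from 0) of 10 members in each library of Control and ACh. Points are libraries and bars are mean ± SD with n = 3. In all 10 panels the groups do not overlap, and the shifts are small beside the level of the gene.

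Set side by side, the share of genes higher in ACh was 55.6% of the 18 E2 genes (exact 95% interval 30.8% to 78.5%), 58.6% of the 58 E3 genes (44.9% to 71.4%) and 83.3% of the 24 deubiquitinase genes (62.6% to 95.3%). Over all listed genes it was 48.3%. The intervals overlap, treat genes as independent, which they are not, and cover counting only. Without USP6NL the deubiquitinase share was 82.6%. The median log2 fold changes of the 3 classes were 0.11, 0.13 and 0.15. By library, the median member stood 0.12, 0.14 and 0.12 above its Control mean in the 3 ACh libraries on the log2 scale, and the median deubiquitinase gene 0.14, 0.18 and 0.18 above. Levels per length fell in the opposite order, with medians of 357 normalised counts per kilobase for E2, 210 for E3 and 142 for deubiquitinase genes.

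Direction went with base composition among the members as it did in the whole table. GC content was borrowed from the mouse gene under the same symbol, available for 98 of the 100 members, because no human sequence was used here. The Spearman correlation across these 98 genes between the log2 fold change and GC content was -0.77, beside -0.76 over 3676 listed genes. The points share the same 6 libraries, and genes are not independent replicates. The members higher in ACh had a median GC content of 43.8% and the lower ones 56.5%. Gene length in the table went the other way, with medians of 7132 bases for higher and 4182 bases for lower members.

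**Figure D3:**
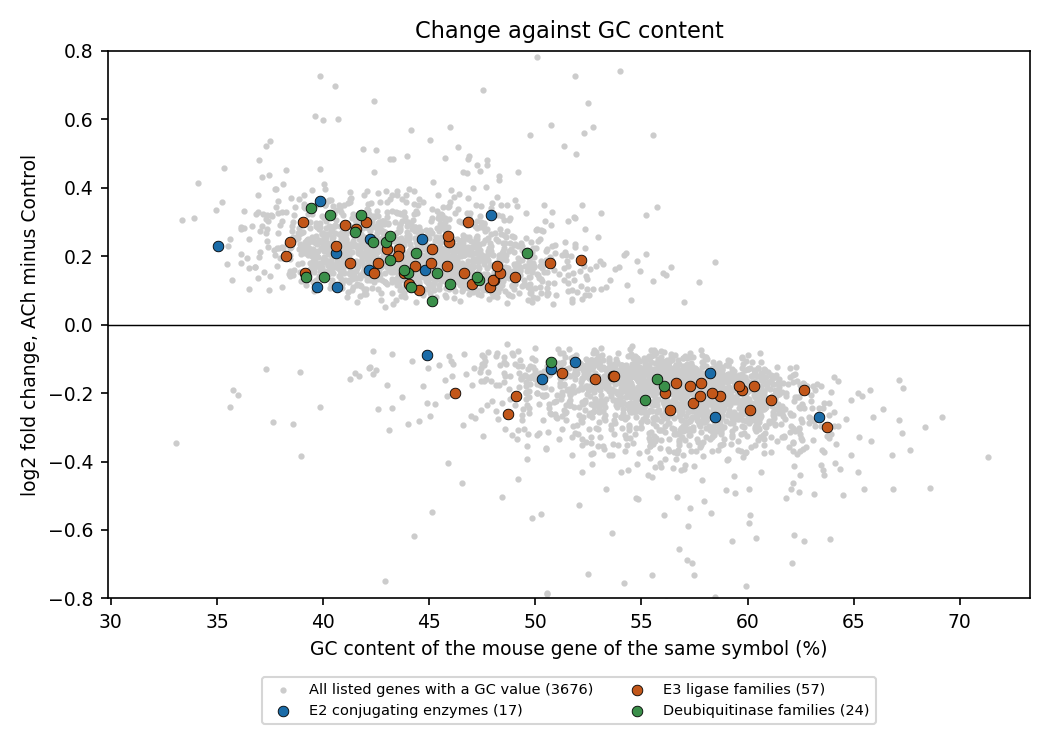
Log2 fold change (ACh minus Control, vertical axis) against the GC content in percent, from the mouse gene with that symbol (horizontal axis). Grey points are the 3676 listed genes with a GC value, of which 46 lie outside the vertical range, and coloured points are members by class. Members lie within the grey band, above 0 at low GC content and below 0 at high GC content.

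The classes differed in this property too. With a division at 48%, chosen after the values were seen, 19 of 24 deubiquitinase genes, 11 of 17 E2 genes and 28 of 57 E3 genes lay under it. Under 48%, 19 of 19 deubiquitinase genes, 10 of 11 E2 genes and 27 of 28 E3 genes were higher in ACh, beside 1433 of 1508 listed genes in that range. At 48% or more the counts were 1 of 5, 0 of 6 and 7 of 29, beside 13.9% of all listed genes. The TRIM genes had a median GC content of 53.7%, the cullins of 42.6%, the USP genes of 44.1% and the HECT genes of 46.3%.

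Once the GC trend was taken out of each library, few members kept their call. The trend was fitted over the listed genes only, all of them selected for a difference. Its removal thus also takes out any change that itself goes with GC content. A lost call therefore does not show that a gene was unchanged. Of the 63 with a GC value that had passed both tests, 5 passed limma in the same direction, 34 kept their sign without passing and 24 changed sign. The 5 make up 7.94% of the 63, and among the 2460 listed genes that had passed both tests the like share was 12.8%. The share of deubiquitinase genes higher in ACh went to 45.8%, that of E2 genes to 41.2% and that of E3 genes to 57.9%, beside 54.1% of all genes with a GC value. Of the 9 TRIM genes with a GC value 6 were then higher, against 1 before. Of the 20 USP genes 9 were higher, against 18 before, and of the 4 HECT genes 2, against 4. The cullins stayed at 5 of 6. UBE2W then stood at 0.13, NEDD4 at 0.08, CUL4B and CUL5 at 0.07 each, USP45 at 0.11 and USP53 at 0.10. UBE2S stood at -0.03, and the sign of UBE2M, RNF187, TRIM28, TRIM41, USP5, OTUB1 and OTUD4 was reversed at sizes of at most 0.07. None of these passed limma.

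The 5 members that kept their calls were FBXO27, TRIM16, FBXO34, UBR2 and USP12. Positions are those of the table, whose genome build is not given in the sources used here. FBXO27 (ENSG00000161243, chromosome 19, 38990714 to 39032785) went from -0.26 to -0.34 on the log2 scale (limma adjusted p = 1.18e-05), and TRIM16 (ENSG00000221926, chromosome 17, 15627960 to 15684311) from -0.21 to -0.28 (limma adjusted p = 1.84e-06). FBXO34 (ENSG00000178974, chromosome 14, 55271303 to 55361918) had 811, 793 and 814 in Control and 944, 914 and 900 in ACh, and went from 0.19 to 0.29 (limma adjusted p = 0.000201). UBR2 (ENSG00000024048, chromosome 6, 42564062 to 42693504) had 1037, 965 and 1016 in Control and 1157, 1108 and 1145 in ACh, with 0.18 before and 0.20 after (limma adjusted p = 0.00363). USP12 (ENSG00000152484, chromosome 13, 27066142 to 27171896), which with its partner WDR48 acts on histones and receptors, had 963, 920 and 931 in Control and 1086, 1074 and 1100 in ACh, with 0.21 before and 0.17 after (limma adjusted p = 0.011). For these 5 the mouse gene had a GC content between 48.7% and 52.1%, near the median of all listed genes, 50.9%.

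**Figure D4:**
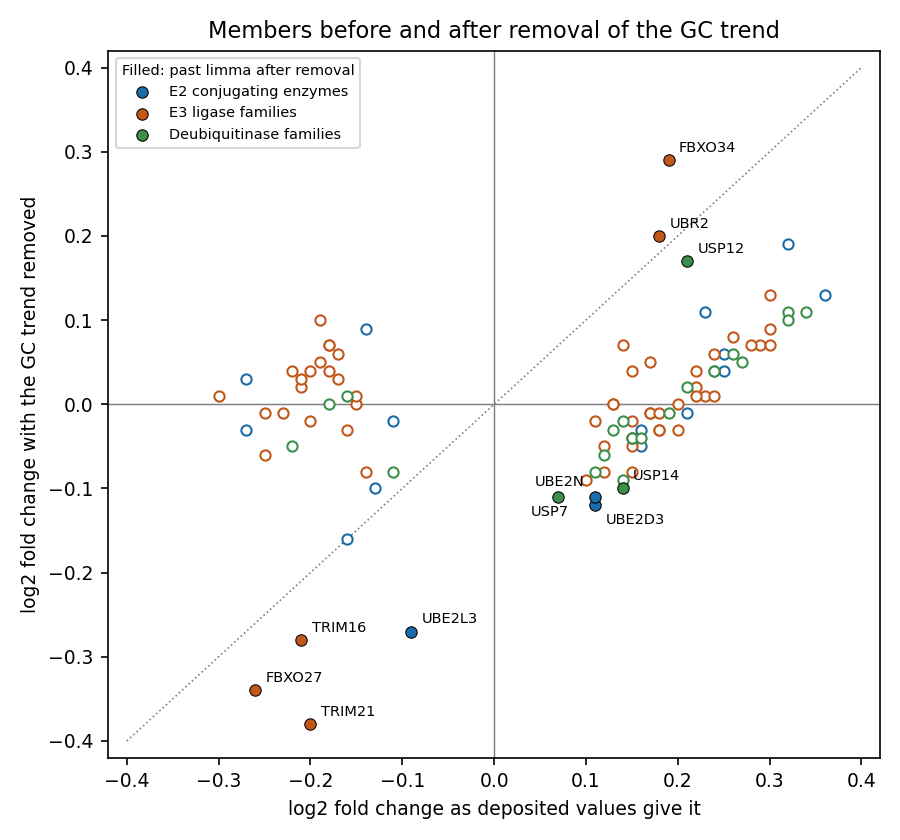
Log2 fold change of 98 members before (horizontal axis) and after (vertical axis) removal of the GC trend. Filled, named points passed limma after removal, open points did not, and the dotted line marks equal values. Most members move to within 0.1 of 0, and 11 passed limma.

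Another 6 members passed limma with the GC trend removed, all of them lower in ACh. TRIM21 and UBE2L3 had been lower by limma before as well but had missed the authors' adjusted p, and the other 4 had been higher. In all 11 of 98 members passed limma there (11.2%), beside 16.4% of all genes with a GC value. Of the members 3 were higher and 8 lower, beside 7.86% and 8.51% of those genes. TRIM21 had 587, 603 and 540 in Control and 498, 489 and 516 in ACh, and stood at -0.38 after removal (limma adjusted p = 0.000167). UBE2L3, an E2 that serves HECT and RING-between-RING ligases, had 3792, 3730 and 3851 in Control and 3648, 3521 and 3524 in ACh and went from -0.09 to -0.27 (limma adjusted p = 1.39e-06). UBE2D3, UBE2N, USP7 and USP14, all higher in the deposited values, stood at -0.12, -0.11, -0.11 and -0.10 after removal. The sign of these 4 after removal rests on the trend that was subtracted, and that trend came from selected genes only. The human GC content of the members was not measured, so a gene whose mouse counterpart differs in GC content would be wrongly placed.

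On chromosomes 8 and 19 the members all went one way. So they did on several others, among them chromosome 15 with 6 of 6 higher and chromosomes 4 and 13 with 4 of 4 each. Of all listed genes on chromosomes 15, 4 and 13, 64.8%, 78.7% and 92.2% had a higher mean in ACh, with no threshold. On chromosome 1, with 6 of 10 higher, and chromosome 11, with 4 of 8, they were mixed, beside 50.8% and 36.3% of listed genes. All 8 members on chromosome 8 rose, among them UBE2W, UBE2V2, RNF139, RNF170, RNF19A, OTUD6B and FBXO32, where 39.9% of the 188 listed genes rose. On chromosome 19 all 6 members were lower in ACh, namely UBE2S, UBE2M, FBXO17, FBXO27, RNF126 and TRIM28, and each of them fell. Of the 406 listed genes there only 7.9% had a higher mean in ACh, with no threshold, so most were lower like these members. The share of listed genes there that fell by both tests was not counted, so the 6 falls have no like share beside them. The median GC content of the members on chromosomes 8 and 19 was 41.9% and 59.0%. These chromosomes were picked after the values were seen. On chromosome 19 TRIM28 ends at 58550722 and UBE2M starts at 58555712, so these 2 genes are close neighbours.

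The other genes of the pathway, from 8 lists of 240 symbols, went both ways as well. The 106 listed genes comprised 37 that rose, 39 that fell and 30 short of both tests, with a median log2 fold change of 0.10 beside -0.10 in the whole table. With equal totals 37 rose and 24 fell. Of 7 listed ubiquitin and ubiquitin-like genes 4 fell, or 2 with equal totals, and 1 rose. UBB, one of the polyubiquitin genes, had 11529, 11684 and 11371 in Control and 9464, 9462 and 9099 in ACh. It fell by 0.30, and with the GC trend removed it was still lower (-0.14, limma adjusted p = 0.00211). ISG15 fell by 0.24, in the same direction as UBE2L6, and UFM1, a further ubiquitin-like modifier, rose by 0.14.

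The listed E1 genes went both ways. UBA1, the main E1 of ubiquitin, fell by 0.13, from 5328, 5234 and 5127 in Control to 4809, 4756 and 4811 in ACh, and lost its call with equal totals (-0.05). UBA6, the alternative E1, had 1953, 2026 and 1986 in Control and 2487, 2476 and 2404 in ACh and rose by 0.30. MOCS3, which activates the modifier URM1, fell by 0.31. None of these 3 passed limma with the GC trend removed.

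Of 20 listed partners of cullins 8 rose and 4 fell. COPS2, a subunit of the COP9 signalosome that takes NEDD8 off cullins, had 1432, 1434 and 1346 in Control and 1752, 1818 and 1650 in ACh and rose by 0.31. SOCS3, a receptor for cytokine signalling proteins, fell by 0.26, and KEAP1 by 0.20. Of 7 listed genes of the anaphase-promoting complex 2 rose, with CDC23 at 0.18, and 3 fell, with ANAPC2 at -0.21. Without the GC trend no gene of either list held its call, and COPS6, which missed the authors' adjusted p before, passed limma at -0.16 (-0.13 before). CDC20, which had missed it too, changed sign from -0.07 to 0.10 and passed limma.

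Among 34 other E3 genes 14 rose and 11 fell, or 7 with equal totals. BIRC3, a ligase of TNF receptor signalling and an NF-kB target, had 241, 237 and 228 in Control and 337, 327 and 301 in ACh and rose by 0.45. STUB1, which ubiquitinates clients of heat shock proteins, had 2009, 2147 and 2023 in Control and 1581, 1565 and 1614 in ACh, a log2 fold change of -0.38. Both kept their calls after removal of the GC trend, at 0.27 and -0.12. Of 7 other deubiquitinases 4 rose, led by YOD1 at 0.34, and 2 fell, with BAP1 at -0.21. Of 8 SUMO genes 4 rose, PIAS2 most at 0.30, and 3 fell, SENP3 most at -0.22. No gene of these lists of deubiquitinases and SUMO genes held its call after the GC trend was removed, with YOD1 at 0.11, BAP1 at -0.04, PIAS2 at 0.10 and SENP3 at -0.06.

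Of 19 listed receptors for ubiquitinated proteins and p97 genes 10 fell and 3 rose, and 9 of the 19 were higher in ACh. With equal totals 3 fell and 3 rose. The ATPase p97 (VCP) pulls ubiquitinated proteins out of membranes and complexes together with UFD1 and NPLOC4. VCP had 9811, 9682 and 9840 in Control and 9205, 9156 and 9027 in ACh and fell by 0.10. UFD1 had 1985, 1836 and 1992 in Control and 1783, 1673 and 1684 in ACh and fell by 0.18, and NPLOC4 fell by 0.09. With equal totals all 3 lost their calls, at -0.02, -0.10 and -0.01. With the GC trend removed VCP stood at -0.12 (limma adjusted p = 0.00412) and UFD1 at -0.34, while NPLOC4 stood at 0.05 and lost its call. UBXN1, a cofactor of p97, fell most in the list, by 0.29, and TAX1BP1, an autophagy receptor, rose most, by 0.19.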

How the data were processed

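RNA was compared between 3 Control and 3 ACh libraries. The table holds a signal per gene and library, the deposited normalised read count. Each library's values were multiples of its own step, within 0.1 of a step, and the steps ran from 0.7678 to 1.1314. No count test was run, because the Control libraries held only 81 to 93 low values to check this on, under the 100 needed. Its log2 fold changes and p-values were deposited by the authors, per the file headers. The labels name mouse, and the submitters' processing notes name Bowtie 0.12.2, mm8 and mm10, but 4183 of 4195 gene IDs are human. No human build or counter is stated in the sources used here.

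limma 3.58.1 (limma-trend, R 4.3.3) was run on log2(value + 1) over all 4195 genes with group as the term and Benjamini-Hochberg adjustment. The pseudocount of 1 understates changes of genes with low values. Calls also needed an adjusted p under 0.05 in the authors' deposited table. That table was selected on these libraries, so limma adds no separate evidence. GC content came from mouse GENCODE M21, from the longest coding transcript under the same symbol, for 3676 genes (87.6%). Its trend was taken out of each library by local regression (span 0.3), fitted over these selected genes only. Other settings were a pseudocount of 0.1, dropping the quartile of lowest means, equal totals, a replicate block, each library left out in turn and limma alone.

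Members and lists were chosen with earlier results of these data known. The named genes were, for each of 8 symbol groups, up to 2 with the largest rise, up to 2 with the largest fall and the one of highest count, then members that kept their call without the GC trend and the largest change per direction of each pathway list, with a mean of at least 100. Other genes named were chosen after their values were seen, and some members are not reported here. The fit was tested on simulated data. Tables and plots were made in Python 3.11.15 (NumPy 2.4.6, pandas 2.3.3, SciPy 1.17.1, Matplotlib 3.10.9).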

Additional observations from a re-analysis of the deposited data

How the results depend on the processing

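The counts of members that rose (40) and fell (24) and the 3 class shares were recomputed under the alternatives. With the GC trend removed 3 of 98 members rose and 3 fell, beside 185 and 201 of 3676 listed genes. Together with the replicate block 4 rose and 5 fell, beside 261 and 255. Direction in these counts is that of the limma fit, and the authors' direction was not asked to match. USP14 thus counts as fallen with the GC trend removed, at -0.10, although it was higher in the authors' deposited table (0.14). By limma alone, 64 were higher and 36 lower, and, chosen after seeing the data, limma alone with the GC trend removed gave 3 higher and 8 lower. The deubiquitinase share was 45.8% with the GC trend removed, with or without the replicate block. Leaving out each library kept the counts at 40 and 24 and the shares as reported, as did the pseudocount. In these settings and with the replicate block the authors' adjusted p stayed as deposited, and in the main fit all 100 members passed limma. The counts thus follow the authors' own calls, and their staying the same is no test of stability. Equal totals gave 40 and 16, beside 1207 and 990 of 4195 listed genes. The lower-quartile filter gave 36 and 23 over 88 members, beside 1028 and 1291 of 3146 listed genes.

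The replicate numbers do not show a pairing, since the deviations of same-numbered libraries correlated by 0.08, 0.06 and 0.05, although each library did correlate best with its own number. With the replicate block 40 members rose and 24 fell, and no named gene changed its call. Of 49 named genes, 10 reversed with the GC trend removed, among them OTUB1 0.00, OTUD4 -0.01, RNF187 0.04, TAX1BP1 -0.02, TRIM28 0.07, TRIM41 0.04, UBE2M 0.03, UFM1 -0.08 and USP5 0.01, and the values were the same together with the replicate block. Another 31 lost their call in the same direction. The cause was not tested. The median over all genes moved by 0.11 on the log2 scale with the GC trend removed. Count tests with edgeR or DESeq2 were not run, and the depth behind low values is unknown.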
